A study of Homo sapiens with 2 samples.

Results

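The histone acetyltransferases examined here are the 10 genes KAT5, KAT6A, KAT6B, KAT7, KAT8, CREBBP, EP300, KAT2A, KAT2B and HAT1. They were chosen by gene symbol in the array platform's annotation, which gave 19 probe sets among 22215 non-control probe sets and 10 genes among 11963 genes with a probe set of 1 symbol. RNA came from cells of the established Hodgkin lymphoma line L-540 that were treated with vorinostat or left untreated. Each of these 2 groups was hybridised to 1 Affymetrix HG_U133A array, so no test was run and no difference below has a replicate check. The labels used here gave no dose and no treatment time. Vorinostat is a hydroxamate inhibitor of histone deacetylases, and apart from it the labels name the same cell line, growth condition and extraction for both cultures.

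Histone acetyltransferases transfer the acetyl group of acetyl-CoA to lysines of histone tails and of many other proteins, and histone deacetylases, the targets of vorinostat, remove it. The enzymes fall into 3 families by their catalytic fold. The MYST family holds KAT5, KAT6A, KAT6B, KAT7 and KAT8, the paralogs CREBBP (CBP) and EP300 (p300) form a family of transcriptional coactivators, and the GNAT family holds KAT2A, KAT2B and HAT1. Most of them work as the catalytic subunit of a large complex whose scaffold and reader subunits direct it to chromatin.

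Of the 10 acetyltransferase genes, 4 were at least 2-fold lower in the vorinostat array than in the untreated array, 6 differed by less than 2-fold and 0 were higher by 2-fold or more. The 4 lower genes were KAT5 (3.06-fold), CREBBP (2.47-fold), KAT6B (2.14-fold) and KAT8 (2.01-fold). HAT1 had the highest ratio of the 10, at 1.49-fold higher. In RNA from a whole culture, fewer cells with a transcript and less of it per cell cannot be told apart. Of all 8277 measured genes, 5.12% were at least 2-fold lower and 3.77% at least 2-fold higher. Of these 736 genes past 2-fold, 42.4% were higher, against 58.8% when the arrays were scaled to equal medians. A probe set was measured where its signal exceeded 68.9 units, the floor set on dim signals, on at least 1 array, and all 10 acetyltransferases were measured and above the floor on both arrays. Of their 19 probe sets 18 were measured, with 16 of the 18 lower in the vorinostat array and 8 at least 2-fold lower, against 5.47% of all 14194 measured probe sets, and 0 at least 2-fold higher, against 3.65%. Probe sets of 1 gene are not independent of each other. The median log2 ratio of the 10 genes was -0.54, against -0.04 over all measured genes, whose log2 ratios had an SD of 0.59 over genes. The share of all measured genes with a ratio below 1 was 53.0%, and 8 of the 10 acetyltransferases had one. With 1.5-fold as the size rule 5 of the 10 were lower, against 15.5% of all genes, since KAT2A joined the 4, and 0 were higher, against 12.7%. With 3-fold as the rule KAT5 alone was lower, against 0.930% of all genes.

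**Figure D1:**
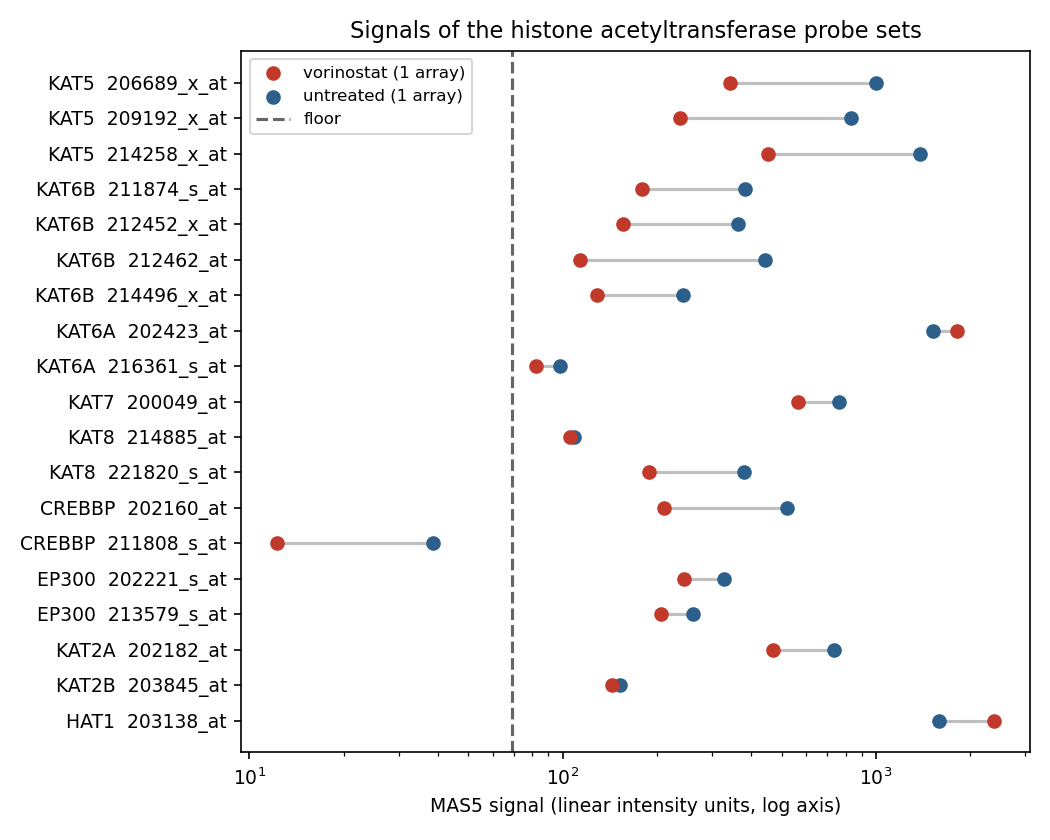
MAS5 signal (linear intensity units, log axis) of the 19 acetyltransferase probe sets in the vorinostat array (red) and the untreated array (blue), with the floor of 68.9 as a dashed line. The vorinostat point lies left of the untreated point for KAT5, KAT6B and CREBBP, and right of it for HAT1 and the brighter KAT6A probe set.

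The promoter windows of the 3 most lowered genes and of HAT1, the gene at the other end, are shown because these are the members whose ratios differ most. Each runs from 250 bases before to 50 bases after the annotated start of the gene, 5' to 3' on the gene's own strand, from RefSeq on GRCh38.p14. The table held such a window for 8 of the 10 genes. Capitals mark matches, on either strand, to 4 of the 6 motifs searched: the GC box GGGCGG, the ETS motif CCGGAAG, the E-box CACGTG and the CCAAT box CCAAT.
KAT5 promoter, chr11:65712002-65712301, plus strand: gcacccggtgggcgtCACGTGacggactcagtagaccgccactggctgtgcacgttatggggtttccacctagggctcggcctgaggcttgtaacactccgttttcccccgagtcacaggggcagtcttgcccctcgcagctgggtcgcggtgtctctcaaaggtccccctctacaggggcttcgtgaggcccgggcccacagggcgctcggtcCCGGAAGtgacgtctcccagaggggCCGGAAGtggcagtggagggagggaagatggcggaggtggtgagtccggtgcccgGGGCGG
CREBBP promoter, chr16:3880664-3880963, minus strand: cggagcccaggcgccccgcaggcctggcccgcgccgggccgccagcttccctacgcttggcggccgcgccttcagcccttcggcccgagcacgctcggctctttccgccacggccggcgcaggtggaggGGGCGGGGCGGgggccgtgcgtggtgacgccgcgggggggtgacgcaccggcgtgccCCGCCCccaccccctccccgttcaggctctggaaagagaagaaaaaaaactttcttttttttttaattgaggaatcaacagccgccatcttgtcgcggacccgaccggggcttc
KAT6B promoter, chr10:74825005-74825304, plus strand: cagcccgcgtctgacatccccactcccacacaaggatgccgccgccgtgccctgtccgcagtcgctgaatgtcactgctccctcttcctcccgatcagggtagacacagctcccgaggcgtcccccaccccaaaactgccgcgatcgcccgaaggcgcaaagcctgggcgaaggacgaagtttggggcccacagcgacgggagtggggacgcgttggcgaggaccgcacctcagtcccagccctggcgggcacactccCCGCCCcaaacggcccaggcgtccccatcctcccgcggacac
HAT1 promoter, chr2:171922211-171922510, plus strand: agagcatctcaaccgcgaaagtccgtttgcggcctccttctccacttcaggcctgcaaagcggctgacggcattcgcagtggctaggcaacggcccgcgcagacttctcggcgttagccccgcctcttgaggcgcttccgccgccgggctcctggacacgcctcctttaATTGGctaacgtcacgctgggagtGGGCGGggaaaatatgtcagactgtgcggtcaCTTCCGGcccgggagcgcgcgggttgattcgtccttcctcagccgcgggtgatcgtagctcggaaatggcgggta
The window of KAT5 held 2 ETS motifs, 1 E-box and 1 GC box, that of CREBBP 3 GC boxes of which the first 2 overlap, and that of KAT6B 1 GC box. The HAT1 window held 1 GC box, 1 ETS motif and 1 CCAAT box. No match to the cAMP response element TGACGTCA or the TATA motif TATAAA was found in any of the 8 windows. Over the 8 acetyltransferase windows, 5 held a GC box and 3 an ETS motif. The GC box was in 44.6% of all 27305 promoter windows and in 69.0% of the 6839 of measured genes, and the ETS motif in 10.7% and 19.1%. The CCAAT box and the E-box were each in 1 of the 8 windows, and in 37.8% and 10.1% of those of measured genes. The cAMP response element was in 3.52% of the windows of measured genes and the TATA motif in 6.04%, so 0 of 8 is close to these shares. The number of CpG dinucleotides was 23 for KAT5, 36 for CREBBP, 29 for KAT6B and 33 for HAT1, beside a median of 26 (quartiles 17 and 34) over the windows of measured genes. These are matches of letters in a short window and not measured binding sites.

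Among the MYST enzymes, KAT5 (TIP60) is the catalytic subunit of the TIP60 complex, acetylates histones H4 and H2A and takes part in the response to DNA double-strand breaks. Its probe set 214258_x_at, which represents the gene because its mean log2 signal over the arrays was the highest, had a signal of 453 in the vorinostat array and 1388 in the untreated array. The probe set 206689_x_at had signals of 343 in the vorinostat array and 998 in the untreated array, a 2.91-fold lower value. The probe set 209192_x_at had 237 and 834 in the same order, 3.52-fold lower. All 3 KAT5 probe sets thus lay on the same side, and their log2 ratios spanned 0.28, against a median span of 0.41 over the 603 genes with 3 probe sets above the floor on both arrays. Of the 986 genes with at least 3 measured probe sets, 2.33% had every one at least 2-fold lower. The ratio of KAT5 ranked 69 from the lowest among 8277 genes, and 0.834% of genes were as low or lower. All 3 KAT5 probe sets carry the suffix _x_at, which marks probes that can also bind other transcripts, so KAT5 has no value without such probe sets. The genes compared with KAT5 above carried any suffix, so its narrow span is not an independent check of its ratio.

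KAT6B (MORF) acetylates histone H3 in a complex built on a BRPF scaffold. Its representative probe set 211874_s_at had a signal of 179 in the vorinostat array and 382 in the untreated array. The probe set 212462_at, the only KAT6B one without a shared-sequence suffix, had 114 in the vorinostat array and 443 in the untreated array, 3.90-fold lower and the largest difference among the 18 measured acetyltransferase probe sets. The remaining probe sets, 212452_x_at and 214496_x_at, were 2.34-fold and 1.88-fold lower, with signals of 156 and 129 in the vorinostat array against 364 and 243 in the untreated array. All 4 KAT6B probe sets were lower with vorinostat, as were all probe sets of 34.5% of the 304 genes with at least 4 measured. The log2 ratios of the 4 spanned 1.05, wider than the median of 0.55 and the upper quartile of 0.81 over the 181 genes with 4 probe sets above the floor on both arrays. The size of the KAT6B difference therefore depends on the probe set, while its direction was the same in each. With equal medians or with the floor at the 60th percentile its log2 ratio was -0.97 or -0.95, short of 2-fold.

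KAT6A (MOZ) is the closest paralog of KAT6B and is known from leukaemia fusion genes. Its brighter probe set 202423_at had a signal of 1818 in the vorinostat array and 1520 in the untreated array, 1.20-fold higher. The dimmer probe set 216361_s_at had 82.3 in the vorinostat array and 98.4 in the untreated array, 1.20-fold lower and close to the floor. The KAT6A probe sets thus pointed in opposite directions by the same small amount, and the median of their log2 ratios was 1.64e-05. On the representative probe sets the log2 ratio was 0.26 for KAT6A and -1.10 for KAT6B, a difference of 1.35 between the paralogs.

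KAT7 (HBO1) acetylates histones H3 and H4 and is known for its part in the licensing of replication origins. Its single probe set 200049_at had a signal of 564 in the vorinostat array and 762 in the untreated array, 1.35-fold lower, and 22.6% of genes were as low or lower. KAT8 (MOF) acetylates histone H4 in the MSL and NSL complexes. Its representative probe set 221820_s_at had 188 in the vorinostat array and 379 in the untreated array, 2.01-fold lower, whereas its other probe set 214885_at had 106 and 109, 1.03-fold lower. The KAT8 log2 ratios of -1.01 and -0.05 spanned 0.97, against a median of 0.27 (quartiles 0.12 and 0.49) over the 1579 genes with 2 such probe sets. The 2-fold call of KAT8 rests on that 1 probe set, lies just past the threshold and was not reached under 7 of the 8 alternative settings of scaling, floor and probe set, including quantile normalization (log2 ratio -0.93) and the median over its probe sets (-0.53). Of the 5 MYST genes 3 were at least 2-fold lower on their representative probe sets and 0 were higher, with a median log2 ratio of -1.01, beside the 5.12% lower over all genes and 8.51% in the quartile of signal level that holds KAT6B and KAT8. The count was 1 of 5, namely KAT5, with equal medians or a 60th-percentile floor, and 1 of 4, namely KAT6B, without shared-sequence probe sets. It was 2 of 5 with quantile normalization, loess scaling, an offset in place of the floor or the median over probe sets. Only the 25th-percentile floor kept it at 3 of 5. Over these alternatives the share of all genes at least 2-fold lower ran from 3.89% (equal medians) to 6.82% (25th-percentile floor).

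**Figure D2:**
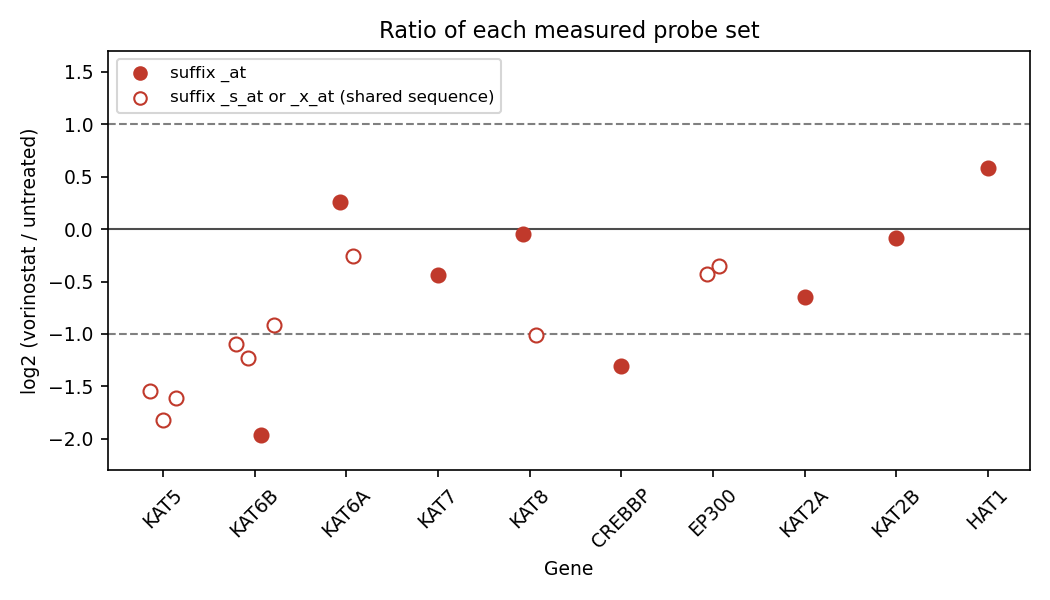
Log2 ratio (vorinostat over untreated) of the 18 measured acetyltransferase probe sets, grouped by gene, with open points for probe sets whose suffix marks shared sequence and dashed lines at 2-fold. The 3 KAT5 and 4 KAT6B points all lie below 0, the KAT6A points lie on either side of 0, and of the 2 KAT8 points one lies at the 2-fold line and the other close to 0.

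CREBBP and EP300 are large coactivators recruited by many transcription factors, and both acetylate histone H3 at enhancers. CREBBP had a signal of 211 in the vorinostat array and 522 in the untreated array on probe set 202160_at, which carries no shared-sequence suffix. The ratio of CREBBP ranked 194 from the lowest, with 2.34% of genes as low or lower. Its other probe set, 211808_s_at, was under the floor on both arrays, with signals of 12.3 and 38.5, and gives no ratio. EP300 had signals of 244 in the vorinostat array and 328 in the untreated array on probe set 202221_s_at, 1.34-fold lower. Its probe set 213579_s_at had 205 in the vorinostat array and 262 in the untreated array, 1.27-fold lower. The EP300 probe sets differed by only 0.08 in log2 ratio, and 23.1% of genes were as low as EP300 or lower. The log2 ratio of EP300 exceeded that of CREBBP by 0.88, so that within this pair the coactivator past 2-fold was CREBBP.

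The GNAT genes lay within 2-fold. KAT2A (GCN5), the acetyltransferase of the SAGA and ATAC complexes, had a signal of 470 in the vorinostat array and 736 in the untreated array on probe set 202182_at, 1.57-fold lower, and 13.3% of genes were as low or lower. Its paralog KAT2B (PCAF) had 144 in the vorinostat array and 153 in the untreated array on probe set 203845_at. The log2 ratio of KAT2B was -0.09 as deposited and 0.04 with equal medians, so no direction can be given for it. HAT1, which acetylates newly made histone H4 before its deposition on DNA, had a signal of 2381 in the vorinostat array and 1594 in the untreated array on probe set 203138_at. HAT1 was thus higher in the vorinostat array, with 12.8% of genes as high or higher. Its log2 ratio lay between 0.53 and 0.71 under all 9 settings of scaling, floor and probe set. Only the scalings and the offset could move it, because its single probe set carries no suffix and lay far above the floors.

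**Figure D3:**
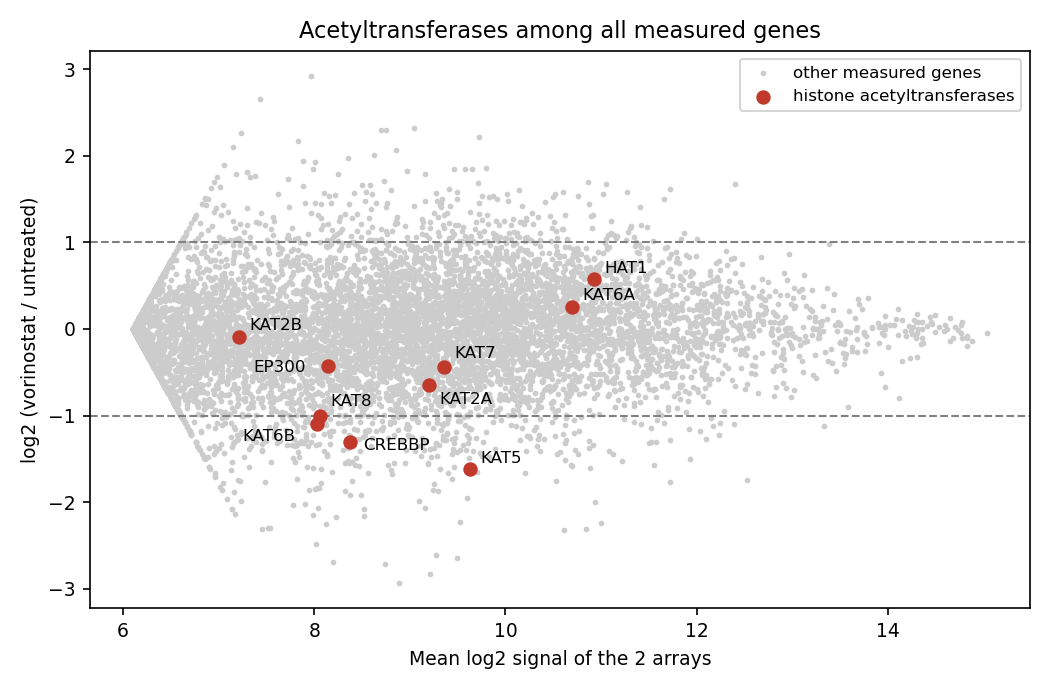
Log2 ratio (vorinostat over untreated) against mean log2 signal for 8277 measured genes (grey) and the 10 acetyltransferases (red), with dashed lines at 2-fold. KAT5, CREBBP, KAT6B and KAT8 lie at or below the lower line, and KAT6A and HAT1 lie above 0.

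The share of genes at least 2-fold lower varied with signal level. CREBBP, EP300, KAT6B and KAT8 fell in the second quartile of level from the dimmest, in which 8.51% of genes were at least 2-fold lower. KAT5, KAT2A and KAT7 fell in the third quartile, in which 4.93% were. KAT2B fell in the dimmest quartile, in which 3.67% were. HAT1 and KAT6A fell in the fourth quartile, in which 3.38% were.

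The acetyltransferases act with partner subunits, and 139 such partners and related genes were listed. Of the 110 that were measured, 12 were at least 2-fold lower, 2 were higher by that much and 96 did not pass 2-fold, with a median log2 ratio of -0.13. The lower ones were 10.9% of the 110 and the higher ones 1.82%. Of all measured genes 5.12% were at least 2-fold lower and 3.77% at least 2-fold higher, 8.89% in either direction. The same shares stand beside the counts of each list below, and each list holds few genes.

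For the MYST enzymes, 13 of 17 TIP60 complex partners were measured and 0 passed 2-fold in either direction (median log2 ratio -0.21). The largest ratio among them was that of MORF4L1, a chromodomain subunit, with a signal of 2026 in the vorinostat array and 3641 in the untreated array, 1.80-fold lower. Over all measured genes 8.89% passed 2-fold in either direction, so at that share few of 13 partners would pass it. The count of 0 therefore does not set the partners apart from KAT5. Of 7 measured partners of KAT6A, KAT6B and KAT7, 2 were lower and 0 higher (median -0.20). Both encode JADE scaffolds, which join KAT7 in the HBO1 complex. The third scaffold gene, JADE3, had a signal of 353 in the vorinostat array and 261 in the untreated array, 1.35-fold higher. JADE2 had a signal of 274 in the vorinostat array and 1085 in the untreated array, 3.96-fold lower, and each of its 2 probe sets was lower. JADE1 had 496 in the vorinostat array and 1232 in the untreated array, 2.48-fold lower. Of 9 measured MSL and NSL partners of KAT8, 2 were lower and 0 higher (median -0.62). The NSL subunit gene KANSL3 was at the floor in the vorinostat array and had a signal of 193 in the untreated array, at least 2.80-fold lower. HCFC1, which encodes a host cell factor shared with other chromatin complexes, had 339 in the vorinostat array and 801 in the untreated array, 2.37-fold lower.

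For the GNAT enzymes, 2 of 19 measured SAGA and ATAC partners were lower and 0 higher (median -0.35). The adaptor gene TADA2A, whose product contacts KAT2A and KAT2B, had a signal of 114 in the vorinostat array and 278 in the untreated array, 2.45-fold lower, and both its probe sets were lower. TAF6L, a structural SAGA subunit, had 80.2 in the vorinostat array, close to the floor, and 174 in the untreated array, 2.17-fold lower. The median log2 ratio of its 3 probe sets, however, was -0.39. Of 7 measured genes for HAT1 partners and chaperones of new histones, 1 was higher and 0 lower (median 0.21). That gene was ASF1A, a chaperone of histones H3 and H4, with a signal of 635 in the vorinostat array and 298 in the untreated array, 2.13-fold higher.

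Of 12 measured partner factors of CREBBP and EP300, 3 were lower and 0 higher (median 0.02). CRTC1, a coactivator of CREB, had a signal of 75.3 in the vorinostat array, close to the floor, and 205 in the untreated array, 2.72-fold lower. ATF4, the transcription factor of the amino acid and stress response, had 2791 in the vorinostat array and 6311 in the untreated array, 2.26-fold lower. NCOA2, a nuclear receptor coactivator, had 267 in the vorinostat array and 566 in the untreated array, 2.12-fold lower, and all 4 of its probe sets were lower.

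**Figure D4:**
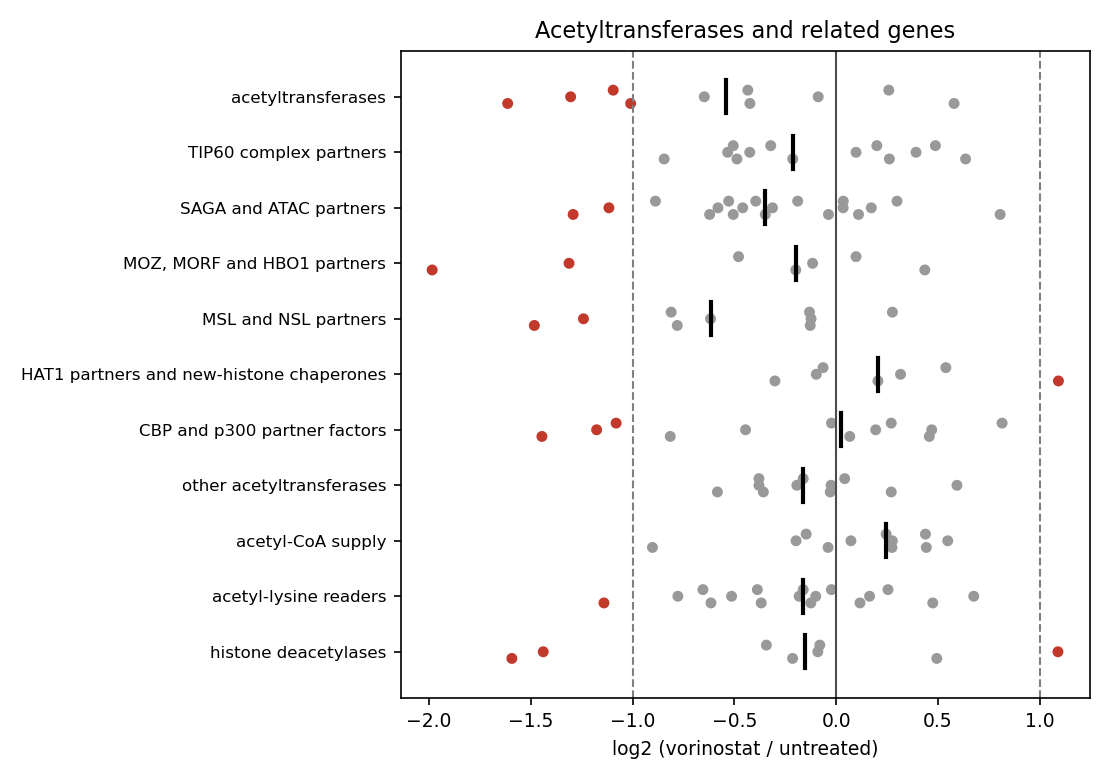
Log2 ratios (vorinostat over untreated) of the measured genes of each list, with the list's median as a black bar, genes at least 2-fold apart in red and dashed lines at 2-fold. Most genes lie inside the dashed lines, and the medians run from -0.62 for the MSL and NSL partners to 0.25 for acetyl-CoA supply.

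Other genes of acetylation were mostly within 2-fold. Of 11 measured other acetyltransferases 0 passed 2-fold (median -0.16), and the largest ratio belonged to the N-terminal acetyltransferase gene NAA50, at 1.51-fold higher. Of 11 measured genes of acetyl-CoA supply 0 passed 2-fold (median 0.25), with PDK1, an inhibitory kinase of pyruvate dehydrogenase, furthest apart at 1.87-fold lower. Of 17 measured readers of acetyl-lysine 1 was lower and 0 higher (median -0.16), namely the bromodomain gene BRD9, with a signal of 778 in the vorinostat array and 1716 in the untreated array. Among the 8 measured deacetylases, HDAC7 (3.02-fold) and HDAC9 (at least 2.71-fold) were lower and HDAC3 was 2.13-fold higher (median -0.15).

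The median signal was 115 on the vorinostat array and 126 on the untreated array, and both arrays had a mean of 500.2 once the outer 2% of signals at either end were trimmed. Of the marker genes for Hodgkin cells 8 of 10 were above the floor on both arrays, with CCL17 and CCL22 under it on both, and their summed signal was 24130 in the vorinostat array and 36139 in the untreated array. TNFRSF8 (CD30) had signals of 3228 in the vorinostat array and 10777 in the untreated array, whereas IRF4 had 14699 and 12032 and GATA3 1565 and 1174 in that order. Of the 8 measured Hodgkin markers 6 had a ratio below 1. At least 2-fold lower were 3, namely TNFRSF8 (3.34-fold), BATF3 (3.40-fold) and STAT6 (2.66-fold), and 0 were higher by that much. Of all measured genes 53.0% had a ratio below 1, 5.12% were at least 2-fold lower and 3.77% at least 2-fold higher. Of the T cell markers 4 of 8 were above the floor in the vorinostat array and 5 in the untreated array, with a summed signal of 2245 in the vorinostat array and 6115 in the untreated array. Most of that difference came from CD247, a T-cell receptor chain gene with 942 in the vorinostat array and 4463 in the untreated array, and without it the sums were 1303 and 1652 in that order. CD3D, CD3G and CD7 were under the floor on both. Of the myeloid markers 1 of 6 was above the floor on both arrays, with summed signals of 242 in the vorinostat array and 292 in the untreated array, and of the epithelial and stromal markers 4 of 8 were in the vorinostat array and 3 in the untreated array, with summed signals of 644 and 620. The ratio of the 3' to the 5' control probe set was 0.850 in the vorinostat array and 0.856 in the untreated array for GAPDH, and 1.24 and 1.06 in that order for ACTB. The part of these differences in the acetyltransferase ratios was not tested.

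**Figure D5:**
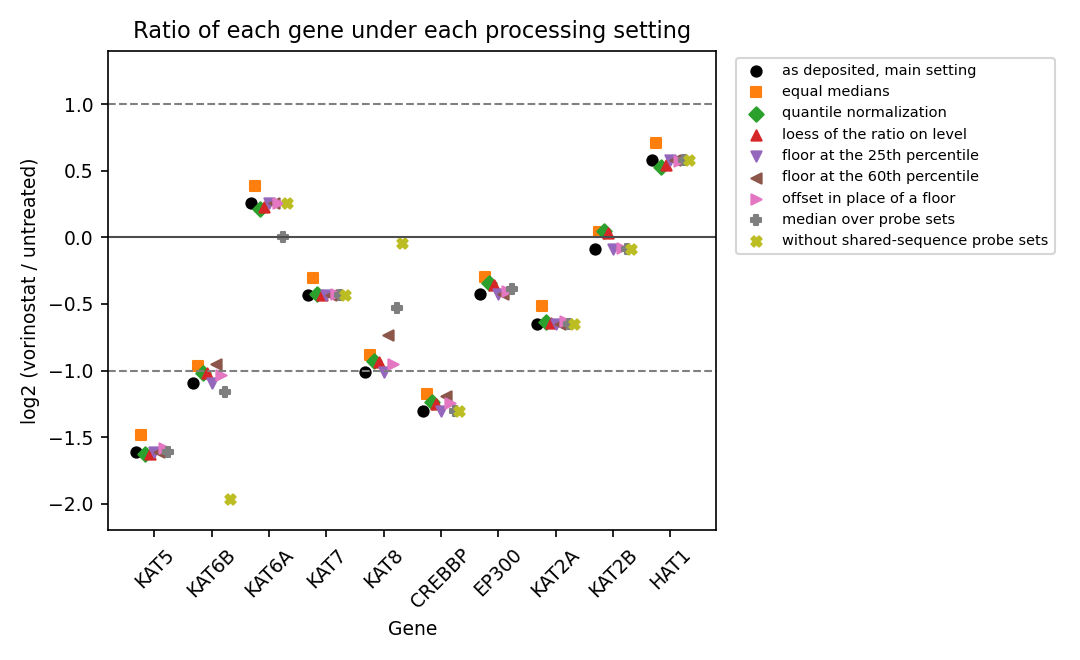
Log2 ratio (vorinostat over untreated) of each acetyltransferase gene under the main setting (black) and 8 alternative settings of scaling, floor and probe set, with dashed lines at 2-fold. KAT5 and CREBBP lie below -1 in every setting that gives them a value, KAT6B lies on either side of -1, and KAT8 ranges from -1.01 to -0.05.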

How the data were processed

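Total RNA of 1 vorinostat-treated and 1 untreated culture was labelled with biotin and hybridised to 1 array each, per the labels' protocols. The authors deposited 1 linear intensity for each probe set, and the submitters' processing notes name MAS5. Its version and scaling target are not given in the sources used here, and detection calls were not used.

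Of 22283 probe sets, 68 control probe sets were left out. Gene symbols came from the platform's annotation table: 19065 probe sets carried 1 symbol, 1043 several and 2107 none. Entrez identifiers of 19053 were found in the RefSeq gene table of GRCh38.p14, which changed 0 symbols. Probe sets of several symbols named no gene.

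Signals under the floor of 68.9, the 40th percentile of both arrays pooled, were set to it before taking log2. Where a gene had several probe sets, the one of highest mean log2 signal stood for it. A gene at the floor on 1 array gives a bound. With 1 array per group, at least 2-fold apart was a rule of size and not a test, and the number of arrays limits the precision.

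All members and, in each fixed list, the genes past 2-fold (or the one furthest apart) were named. The members and lists were chosen with earlier results of these data known. The steps, run in Python 3.11.15 with numpy 2.4.6, pandas 2.3.3 and statsmodels 0.14.6, were checked on simulated data. Alternatives were 3 other scalings, 2 other floors, an offset of 16 units instead of any floor, the median ratio of a gene's probe sets, the probe sets without a shared-sequence suffix, and thresholds of 1.5-fold and 3-fold.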

Additional observations from a re-analysis of the deposited data

How the results depend on the processing

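No paired analysis was possible because each group held 1 array. KAT5 and CREBBP stayed at least 2-fold lower under all alternatives of scaling, floor and probe set that gave them a value. KAT5 and EP300 had none without shared-sequence probe sets. CREBBP has 1 measured probe set, without the suffix, so the settings of probe set could not change its ratio. KAT5 lay above every floor, so the floors could not change its ratio. The number of acetyltransferases at least 2-fold apart, all of them lower, was 4 of 10, also with the floor at the 25th percentile. Of all genes 5.12% and 6.82% were at least 2-fold lower under these 2 settings. The number was 3 of 10 with quantile normalization, loess, the offset or the median over probe sets. In that order 4.73%, 4.79%, 5.91% and 4.81% of all genes were at least 2-fold lower. With equal medians it was 2 of 10, with the floor at the 60th percentile 2 of 9 and without shared-sequence probe sets 2 of 8. The shares of all genes at least 2-fold lower were then 3.89%, 4.32% and 4.84%. At 3-fold the number was 1 of 10, against 0.930% of all genes. Equal medians gave a median log2 ratio of 0.08 over all genes, against -0.04 as deposited. KAT2B turned to a log2 ratio of 0.041 with equal medians, 0.044 after quantile normalization and 0.031 after loess. KAT8 was short of 2-fold under 7 alternatives and KAT6B under 2.

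Of 110 partner and related genes, 14 were past 2-fold (12 lower, 2 higher). The count was 30 at 1.5-fold (23 lower, 7 higher) and 2 at 3-fold (2 lower, 0 higher). With the floor at the 60th percentile it was 8 of 99 (8.08%, 6 lower). Without shared-sequence probe sets it was 9 of 65 (13.8%, 1 higher), against 12.7% of the 110 in the main setting. Of all genes, 736 were past 2-fold (424 lower, 312 higher). The count was 2334 at 1.5-fold (1283 lower, 1051 higher), 122 at 3-fold (77 lower, 45 higher), 1148 with the floor at the 25th percentile (689 lower), 468 at the 60th (251 lower), 1178 with an offset (707 lower, 471 higher) and 471 without shared-sequence probe sets (251 lower). These settings test other numbers of genes. Of all genes they tested, 11.4% were past 2-fold with the 25th percentile floor and 8.05% with the 60th. The offset gave 9.85% of all genes and the probe sets without the suffix 9.08%.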

Other observations

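The genes next to the acetyltransferases in the RefSeq gene order were looked up as a description of position, a choice made after the data were seen. Of 40 such protein-coding neighbours, 2 on each side of a gene, 19 were measured, with 2 at least 2-fold lower, 4 at least 2-fold higher and 13 within 2-fold, and a median log2 ratio of -0.06. Over all measured genes 5.12% were at least 2-fold lower and 3.77% higher. Beside KAT5, the NF-kB subunit gene RELA had a signal of 1491 in the vorinostat array and 1877 in the untreated array, and the Rap GTPase activator gene SIPA1 had 258 and 221. Both neighbours lay within 2-fold. Beside CREBBP, the mitochondrial chaperone gene TRAP1 had 1879 in the vorinostat array and 923 in the untreated array, a log2 ratio of 1.03, where CREBBP was lower. FAM117A, whose annotated span overlaps that of KAT7, had 820 in the vorinostat array and 383 in the untreated array, a log2 ratio of 1.10, where KAT7 was 1.35-fold lower. The other neighbours past 2-fold were DLX4 beside KAT7 (log2 ratio -1.31) and ANK1 beside KAT6A (-1.32), which were lower, and RAB5C beside KAT2A (1.05) and AP3M2 beside KAT6A (1.01), which were higher. KAT6B lies next to the adenosine kinase gene ADK, which had 1395 in the vorinostat array and 1011 in the untreated array.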
